A study of Rattus norvegicus with 8 samples.

Results

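The miR-181 family is a group of microRNAs made from 6 hairpins in the rat, and it was represented by 10 of the 974 miRNAs measured in bone around titanium implants. Members were all miRNAs named rno-miR-181a, b, c or d, with any copy number or arm, so that 4 were 5p arms and 6 were 3p arms. They belong to the 604 catalogued rat miRNAs, whose names begin with rno-. The other 370 were predictions. Small RNA was sequenced from femur bone of male Wistar rats, aged 12 to 13 weeks, with 4 libraries from hyperlipidemic rats that had eaten a high-fat diet for 8 weeks and 4 from normal rats on a normal diet for the same time. All animals carried implants in both femoral shafts, and bone within 1 mm of them was taken 10 days after implantation. No genetic change was named for either group. The labels do not say whether a library came from 1 animal or several, so p-values measure the spread between these libraries. Because whole bone was ground, fewer cells of a type and less RNA per cell cannot be told apart.

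A miRNA hairpin is cut into a duplex whose strands are named 5p and 3p. The strand that is kept in an Argonaute protein, the guide, pairs with target transcripts through its seed, bases 2 to 8, and the other strand, the passenger, is mostly degraded. In the miR-181 family the 5p strand is the usual guide. In the mouse, miR-181a sets how strongly thymocytes respond through the T-cell receptor and favours B-cell development, and miR-181b restrains NF-kB signalling in endothelium.

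The mature sequences show which members can be told apart and which share a target-pairing seed. Of the 10 names, 9 had a mature sequence in the RefSeq table of the build GRCr8, which differs from the build Rnor_6.0 named in the submitters' processing notes. Each is printed 5′ to 3′, with the seed in capitals. The guide arms come first.
miR-181a-5p: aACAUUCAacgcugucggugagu
miR-181b-5p: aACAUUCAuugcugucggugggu
miR-181c-5p: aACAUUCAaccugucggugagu
miR-181d-5p: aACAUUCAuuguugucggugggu
The 4 guide arms had 1 seed in common, ACAUUCA, and no other of the 693 mature names in the reference held it. Counted from 1 at the 5′ end, miR-181b-5p differed from miR-181a-5p by A9U, C10U and A21G, and miR-181d-5p differed from miR-181b-5p by C12U alone. MiR-181c-5p equalled miR-181a-5p with the base at position 11 removed. No source used here says how reads that fit more than 1 of these near-identical sequences were assigned, so the split between paralogues carries that uncertainty.

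The passenger arms were less alike, and they carry the information on genomic copy.
miR-181a-1-3p: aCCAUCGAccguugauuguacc
miR-181a-2-3p: aCCACCAAccguugacugu
miR-181b-1-3p: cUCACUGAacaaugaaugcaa
miR-181c-3p: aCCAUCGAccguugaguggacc
miR-181d-3p: cCACCGGGggaugaauguca
MiR-181a-1-3p and miR-181c-3p had the seed CCAUCGA in common and differed by U16G and U19G. Over its 19 bases miR-181a-2-3p differed from miR-181a-1-3p by U5C, G7A and U16C, of which U5C and G7A lie in the seed. The seeds of miR-181a-2-3p, miR-181b-1-3p and miR-181d-3p were each found under 1 reference name.

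The 6 hairpins lie in 3 pairs. In GRCr8, Mir181a-1 and Mir181b1 are on chromosome 13, within the span of LOC108352541, between the protein-coding genes Nr5a2 and Ptprc. Mir181a2 and Mir181b2 are on chromosome 3, within the spans of Nr6a1, which encodes a nuclear receptor, and LOC120101539. Mir181c and Mir181d are on chromosome 19, between Zswim4 and Nanos3, with no annotated gene spanning them. The miR-181a-5p sequence is encoded at chr13:52037081-52037103 and, identically, at chr3:43025601-43025623, both on the plus strand, so the 5p level is a sum over copies. The 3p arms at chr13:52037121-52037142 (miR-181a-1-3p) and chr3:43025646-43025664 (miR-181a-2-3p), also on the plus strand, differ and so report each copy. The hairpins of Mir181c (chr19:40888291-40888396, plus strand) and Mir181a2 (chr3:43025563-43025679, plus strand) are shown with both mature arms in capitals, since the lowest and the highest ratio between arms in a library came from them among the 4 hairpins with both arms tested.
Mir181c: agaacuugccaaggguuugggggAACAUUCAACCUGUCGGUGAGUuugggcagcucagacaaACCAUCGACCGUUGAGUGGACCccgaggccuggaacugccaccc
Mir181a2: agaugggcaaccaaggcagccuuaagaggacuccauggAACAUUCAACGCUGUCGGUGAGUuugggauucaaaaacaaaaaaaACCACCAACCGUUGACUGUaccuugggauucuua

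Levels are in reads per 1000000 (RPM), scaled within the rno- class by the authors. The rno- scale rested on 2643506 to 4809901 reads in hyperlipidemic and 990801 to 1748968 in normal libraries, so the groups also differed in depth without overlap, and 1 read was worth 0.208 to 1.01 RPM. Red-cell miRNAs (miR-144, miR-451 and miR-486, 5 of 5 markers tested) held 19.2% to 33.1% of the rno- signal in hyperlipidemic and 7.77% to 20.2% in normal libraries. Normal replicates 3 and 4 stood apart, with 8.95% and 7.77% in red-cell miRNAs and 9.34% and 6.08% in the myeloid miRNAs miR-142 and miR-223 (4 of 4 tested), against 14.8% to 20.2% for the myeloid list in the other 6 libraries. MiR-144-3p, miR-451-5p, miR-142-5p and miR-223-3p were lowest there, but not every marker was. MiR-486 stood at 9354 and 16264 RPM, the latter the highest of the 8. MiR-144-5p (4490 RPM) and miR-223-5p (153 RPM) were highest in normal replicate 3. The log2 folds of the tested members and the differences in ratio are given with and without normal replicates 3 and 4. Shares of every marker list, the red-cell and myeloid lists included, overlapped between the groups. Mature lymphocyte miRNAs (miR-150 and miR-342, 3 of 3 tested) held 0.326% to 0.426% in hyperlipidemic and 0.251% to 0.467% in normal libraries. The bone-forming and mesenchymal list (miR-199a and miR-214, 3 of 4 tested) held 2.49% to 5.58% and 3.36% to 7.11%. Endothelial miR-126a (2 of 2 tested) held 0.912% to 1.77% and 1.29% to 1.86%, and cartilage miR-140 (2 of 2) held 0.293% to 0.507% and 0.261% to 0.736%. Striated muscle miRNAs (5 of 5) held 0.0193% to 0.473% and 0.0427% to 0.339%, and epithelial miRNAs (4 of 5) held 0.0295% to 0.0414% and 0.0164% to 0.0355%. No marker was at 0 in all 8 libraries. The part of depth and of cell make-up in the family's differences was not tested, apart from the rescaling given with them.

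No member of the family passed the test between hyperlipidemic and normal bone, although most lay lower in the hyperlipidemic libraries. Of the 10 members, 8 passed the filter on low values and were tested. With limma on log2(RPM + 0.475), adjusted over all 696 miRNAs tested, 0 of the 8 were called, as were 0 of them by voom, and 5 had an unadjusted p under 0.05. The same rule called 5 of the 696, or 0.718%, and 0 of the 396 rno- miRNAs tested, or 0%, so all 5 were predicted miRNAs. Among the 8 members 7 had a log2 fold (hyperlipidemic over normal) below 0, as had 61.9% of the rno- miRNAs. All 5 members with an unadjusted p under 0.05 were lower. Of the rno- miRNAs 12.6% passed that unadjusted threshold as lower and 3.03% as higher. For 4 members every hyperlipidemic library lay below every normal one, as for 10.6% of the rno- miRNAs. The median log2 fold was -0.82 over the 8 members, -0.66 over the 5p and -1.05 over the 3p arms, and -0.20 over the 396 rno- miRNAs, with quartiles of -0.59 and 0.21.

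**Figure D1:**
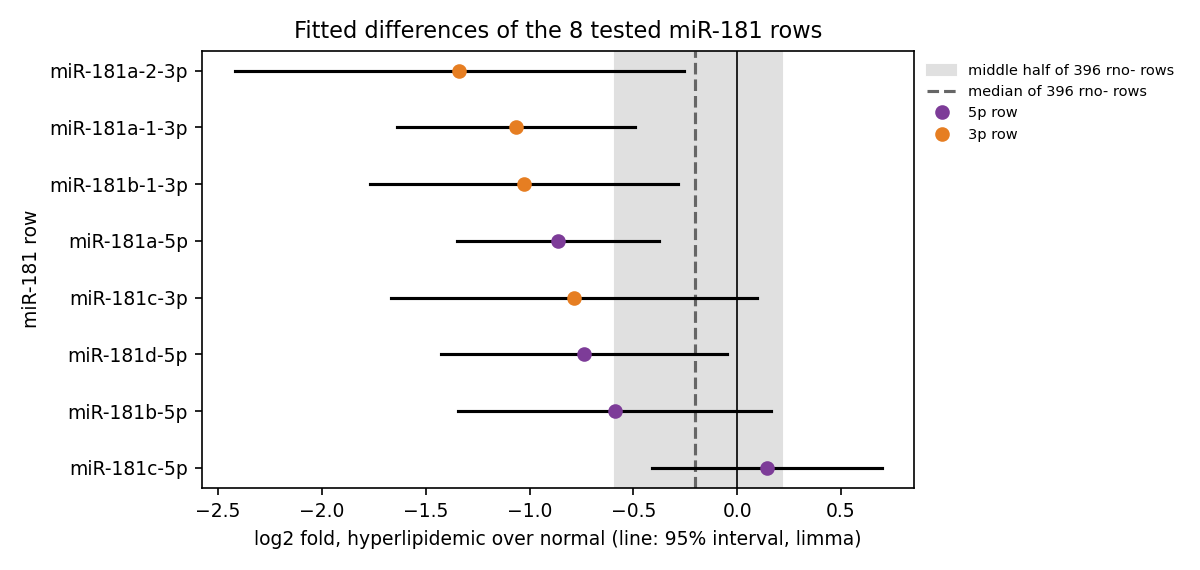
Fitted log2 fold of each of the 8 tested miR-181 members on the x axis (hyperlipidemic over normal, limma), with lines for 95% intervals, purple for 5p and orange for 3p arms. The grey band runs between the quartiles of the 396 rno- miRNAs (-0.59 and 0.21). Of the members, miR-181c-5p is the one above 0.

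The most abundant guide of the family, rno-miR-181a-5p, was lower in every hyperlipidemic library than in any normal one. Hyperlipidemic replicates 1 to 4 stood at 6011, 8302, 7958 and 8928 RPM, and normal replicates 1 to 4 at 12627, 12349, 17296 and 14389.8 RPM. The means were 7799.7 ± 1258 and 14165 ± 2274 RPM (SD, n = 4 each). The log2 fold was -0.86 (SE 0.21, 95% interval -1.35 to -0.38), and it did not pass (limma adjusted p = 0.0924). It was -0.69 when normal replicates 3 and 4 were left out. The exact permutation p was 0.0286, two-sided, the smallest that 4 against 4 libraries can give. It rested on 105911 reads in hyperlipidemic and 78886 in normal libraries, so counting error was small beside the spread between libraries. By mean level miR-181a-5p ranked 20th of the rno- miRNAs.

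The guide rno-miR-181b-5p, made together with miR-181a from the chromosome 13 and chromosome 3 pairs, overlapped between the groups. It stood at 830, 1791, 1420.1 and 1856 RPM in hyperlipidemic replicates 1 to 4 and at 1963, 1819, 3394 and 1664 RPM in normal replicates 1 to 4. Hyperlipidemic replicate 1 was the lowest and normal replicate 3 the highest, while the other 6 lay between 1420.1 and 1963 RPM. The log2 fold was -0.59 (SE 0.33, 95% interval -1.35 to 0.16, limma adjusted p = 0.345). It was -0.34 without hyperlipidemic replicate 1, -0.36 without normal replicate 3, -0.43 without normal replicates 3 and 4, and -0.33 with median-of-ratios factors.

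MiR-181d-5p, which differs from miR-181b-5p by a single base, was lower without overlap. Its level was 160.5, 219, 188 and 214 RPM in hyperlipidemic and 236, 244, 519.8 and 366 RPM in normal replicates 1 to 4. The log2 fold was -0.74 (SE 0.31, 95% interval -1.43 to -0.05, limma adjusted p = 0.257). Normal replicates 3 and 4 held the highest values, and without them the log2 fold was -0.31.

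MiR-181c-5p, from the same chromosome 19 pair as miR-181d, was the member with a log2 fold above 0. It stood at 1158, 1258, 1469 and 1521 RPM in hyperlipidemic and 1471, 1576, 909 and 1042 RPM in normal replicates 1 to 4. The groups overlapped, and normal replicates 3 and 4 were the lowest of all 8. The log2 fold was 0.14 (SE 0.25, 95% interval -0.41 to 0.70, limma adjusted p = 0.760). It was -0.18 when normal replicates 3 and 4 were left out.

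**Figure D2:**
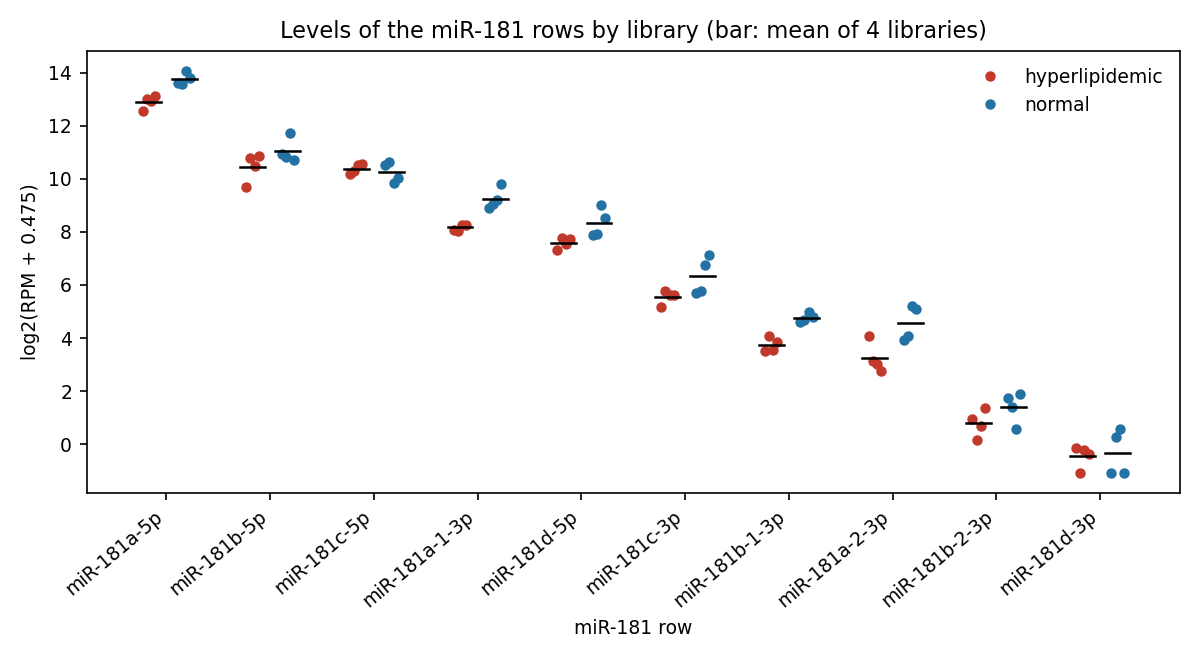
Level of each miR-181 member as log2(RPM + 0.475) in the 4 hyperlipidemic and 4 normal libraries, each point a library and each bar a group mean. MiR-181a-5p stood at 6011 to 8928 RPM in hyperlipidemic and 12349 to 17296 RPM in normal libraries, and miR-181c-5p overlapped between the groups.

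The passenger strand of the chromosome 13 copy, rno-miR-181a-1-3p, lay lower in every hyperlipidemic library. It was at 269, 264, 310.2 and 310.6 RPM in hyperlipidemic replicates 1 to 4 and at 475, 528, 587 and 895 RPM in normal replicates 1 to 4. Its log2 fold was -1.07 (SE 0.25, 95% interval -1.64 to -0.49, limma adjusted p = 0.0836), the lowest adjusted p in the family, and it did not pass. Normal replicate 4 was the highest of the group, and without normal replicates 3 and 4 the log2 fold was -0.80.

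The passenger of the chromosome 3 copy, miR-181a-2-3p, was a much rarer strand. It stood at 16.2, 8.25, 7.57 and 6.29 RPM in hyperlipidemic and 14.9, 16.5, 36.3 and 33.4 RPM in normal replicates 1 to 4. The groups overlapped through hyperlipidemic replicate 1. The log2 fold was -1.34 (SE 0.48, 95% interval -2.42 to -0.26, limma adjusted p = 0.203) on 145 and 137 reads, and it was -0.77 without normal replicates 3 and 4, its 2 highest libraries.

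The passenger of the chromosome 13 copy of miR-181b, rno-miR-181b-1-3p, was lower without overlap. Its values were 11.0, 16.2, 11.4 and 13.8 RPM in hyperlipidemic and 24.0, 25.1, 31.3 and 27.6 RPM in normal replicates 1 to 4. The log2 fold was -1.03 (SE 0.33, 95% interval -1.77 to -0.29, limma adjusted p = 0.153), on 180 reads in hyperlipidemic and 151 in normal libraries, and -0.90 without normal replicates 3 and 4.

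MiR-181c-3p, the passenger of miR-181c, overlapped between the groups. It stood at 35.6, 54.6, 48.4 and 48.5 RPM in hyperlipidemic and 50.9, 53.7, 108 and 138 RPM in normal replicates 1 to 4. The log2 fold of -0.78 (SE 0.39, 95% interval -1.67 to 0.10, limma adjusted p = 0.301) was -0.18 without normal replicates 3 and 4, which alone were above 100 RPM.

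MiR-181b-2-3p and miR-181d-3p were too rare to be tested. MiR-181b-2-3p, from the chromosome 3 copy of miR-181b, was between 0.63 and 2.1 RPM in hyperlipidemic and between 1.01 and 3.21 RPM in normal libraries, on 19 and 14 reads in all. MiR-181d-3p had 4 reads over the hyperlipidemic and 2 over the normal libraries, and it was at 0 in hyperlipidemic replicate 2 and normal replicates 1 and 4. A count of 0 allows up to 0.952, 1.72 and 1.92 RPM there (3 reads), so a difference between the diets was not detectable at this depth. Such limits cover counting error only.

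The scale moved all members alike. Under median-of-ratios factors the rno- median went from -0.20 to 0.05, and the log2 fold of miR-181a-5p from -0.86 to -0.60. Relative to the rno- median it was -0.66 on the deposited scale and -0.65 with those factors, and miR-181a-1-3p was at -0.86 and -0.85. When the rno- values were rescaled to their sum without the red-cell list, miR-181a-5p was at -0.68 (limma adjusted p = 0.142) and miR-181a-1-3p at -0.88 (limma adjusted p = 0.122). MiR-181c-5p was then at 0.33.

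The authors' deposited table marked miR-181a-1-3p, with a fold of 0.452, and miR-181a-2-3p, with 0.420, as down, and the other 8 members as having no change. The adjusted p in the authors' deposited table was 0.169 for the first and 0.361 for the second. For miR-181a-5p the authors' deposited table gave a fold of 0.558 and an adjusted p of 0.236.

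The 10 members together held a smaller part of the rno- signal throughout the hyperlipidemic group, without overlap. The share was 0.947%, 1.34%, 1.26% and 1.46% in hyperlipidemic replicates 1 to 4 and 1.90%, 1.87%, 2.68% and 2.13% in normal replicates 1 to 4. The means were 1.25% ± 0.217 and 2.14% ± 0.375 (SD, n = 4 each), and a sum over the members was given no test. With the red-cell list taken out of the denominator the shares were 1.31% to 1.88% and 2.27% to 2.94%, again without overlap.

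Among the 4 guide arms, miR-181a-5p made up most of the signal, and miR-181c-5p took a larger part of it in hyperlipidemic than in normal bone. MiR-181a-5p held 72.2% ± 1.02 of the summed 5p signal in the hyperlipidemic group against 78.8% ± 2.42 in the normal group, with ranges of 71.3% to 73.7% and 77.2% to 82.4%. MiR-181c-5p held 12.6% ± 1.44 and 7.24% ± 2.67, with ranges of 10.9% to 14.2% and 4.11% to 9.86%. Neither overlapped between the groups. The miR-181c-5p share was 9.02% and 9.86% in normal replicates 1 and 2, and lower, at 4.11% and 5.97%, in normal replicates 3 and 4. Its level in RPM did overlap between the groups. MiR-181b-5p held 13.3% ± 2.38 and 12.1% ± 2.43, and miR-181d-5p 1.82% ± 0.133 and 1.85% ± 0.439 (SD, n = 4 each throughout), and both overlapped.

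**Figure D3:**
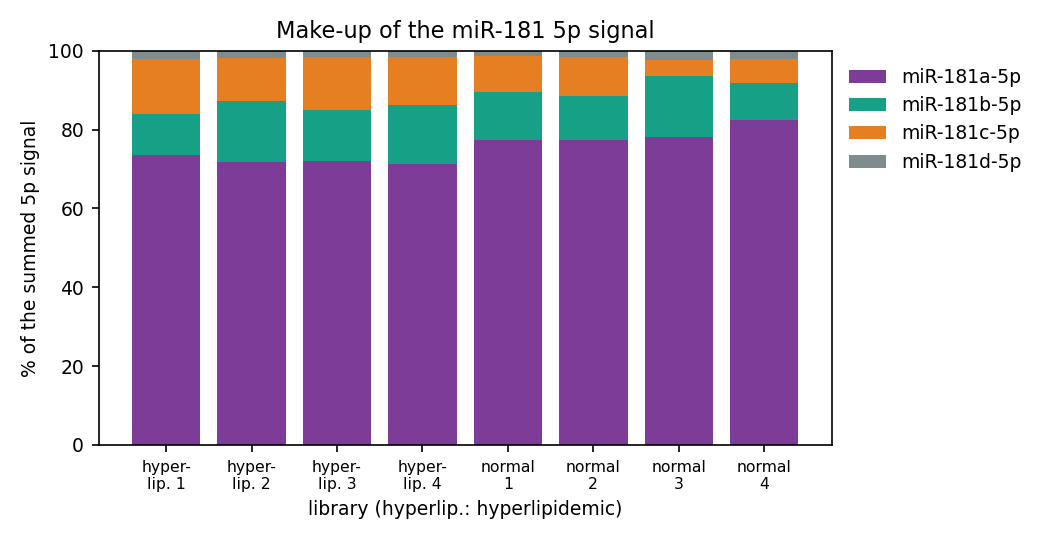
Share of the summed signal of the 4 miR-181 guide arms held by each, in % (y axis), with 1 stacked bar for each library. MiR-181c-5p held 10.9% to 14.2% in the hyperlipidemic and 4.11% to 9.86% in the normal libraries.

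Ratios between paralogues, taken within a library, do not depend on the scaling of the library. Of 8 ratios 0 passed an exact permutation test adjusted over the 8, and 1 had an unadjusted p under 0.05. At 4 against 4 libraries no ratio could pass unless at least 5 of the 8 had no overlap. The ratio of miR-181a-5p to miR-181c-5p was 5.19, 6.60, 5.42 and 5.87 in hyperlipidemic and 8.59, 7.84, 19.0 and 13.8 in normal replicates 1 to 4. It was lower in every hyperlipidemic library, with a difference of -1.0 on the log2 scale (exact permutation p = 0.0286, two-sided, adjusted p = 0.229). Normal replicates 3 and 4 held the highest ratios, and without them the difference was -0.51, still without overlap.

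The other guide ratios overlapped between the diets. MiR-181c-5p over miR-181d-5p, both from the chromosome 19 pair, was 7.21, 5.75, 7.83 and 7.10 in hyperlipidemic and 6.24, 6.45, 1.75 and 2.85 in normal replicates 1 to 4. Only normal replicates 3 and 4 lay below 5 there, and the difference of 0.88 (exact permutation p = 0.0857, adjusted p = 0.343) was 0.13 without them. MiR-181a-5p over miR-181b-5p was 5.57 ± 1.19 and 6.74 ± 1.47 (SD, n = 4 each), a log2 difference of -0.27 with all libraries (exact permutation adjusted p = 0.571) and also without normal replicates 3 and 4. MiR-181a-5p over miR-181d-5p was 37.4, 37.9, 42.4 and 41.7 in hyperlipidemic and 53.6, 50.6, 33.3 and 39.3 in normal replicates 1 to 4, a log2 difference of -0.13 (exact permutation adjusted p = 0.620). Without normal replicates 3 and 4 the difference was -0.39, and every hyperlipidemic library lay below the other 2 normal ones. MiR-181b-5p over miR-181d-5p differed by 0.15 (exact permutation adjusted p = 0.620), and by -0.12 without normal replicates 3 and 4.

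The passenger ratios compare the genomic copies. MiR-181a-1-3p exceeded miR-181a-2-3p by 16.6-fold, 32.0-fold, 41.0-fold and 49.4-fold in hyperlipidemic and by 32.0-fold, 32.0-fold, 16.2-fold and 26.8-fold in normal replicates 1 to 4. The chromosome 13 passenger was thus far above the chromosome 3 passenger in all 8 libraries, and the ratio overlapped between the diets (log2 difference 0.27, exact permutation adjusted p = 0.620, and -0.03 without normal replicates 3 and 4). Levels of different strands also depend on adapter ligation, so the ratio is not a ratio of transcription of the copies. Within the chromosome 13 pair, miR-181a-1-3p over miR-181b-1-3p was 24.4, 16.3, 27.3 and 22.5 in hyperlipidemic and 19.8, 21.1, 18.8 and 32.4 in normal replicates 1 to 4, a log2 difference of -0.04 (exact permutation adjusted p = 0.886), which was 0.10 without normal replicates 3 and 4. MiR-181a-1-3p over miR-181c-3p, which have the same seed, was 6.30 ± 1.12 and 7.77 ± 2.14 (SD, n = 4 each), a log2 difference of -0.28 (exact permutation adjusted p = 0.571). Without normal replicates 3 and 4 it was -0.62, with no overlap between the libraries that remained.

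**Figure D4:**
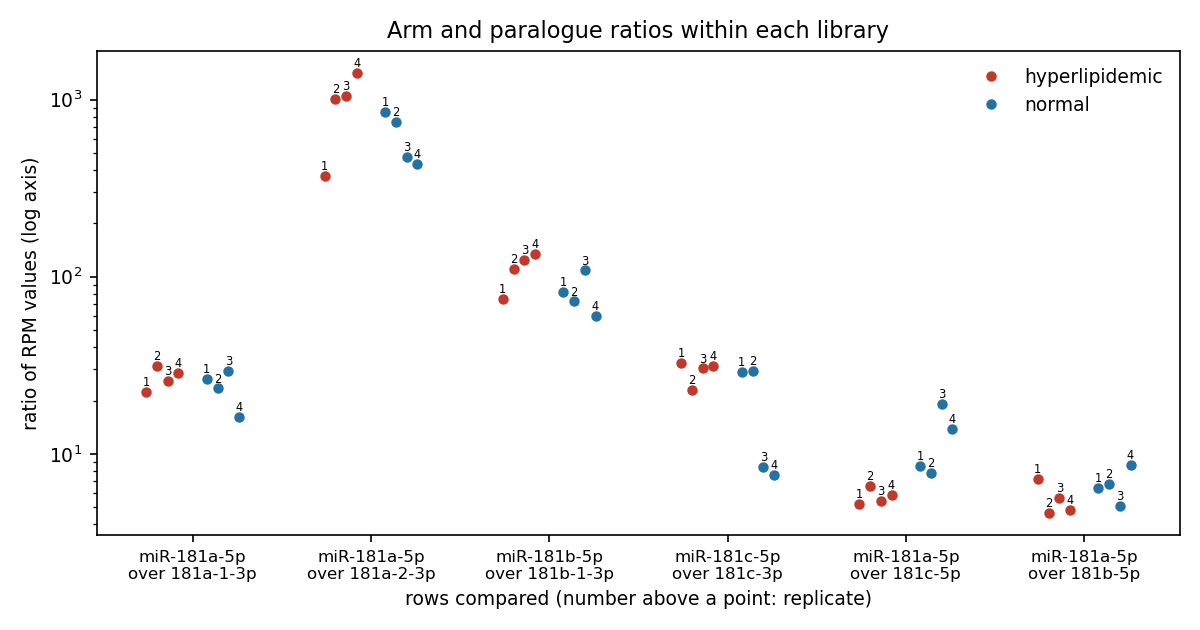
Ratios between the arms of miR-181 hairpins and between paralogues of the same arm within each library (y axis, log scale). Each ratio has a point for each of the 4 hyperlipidemic and 4 normal libraries. MiR-181a-5p over miR-181c-5p was at most 6.60 in the hyperlipidemic and at least 7.84 in the normal libraries, and the other ratios overlapped.

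In every library each guide sequence stood above the passengers of the hairpins that encode it, by amounts that differed widely between passengers. Across the 4 hairpins with both arms tested, 0 arm ratios (5p over 3p) differed between the diets by limma, adjusted over 150 rno- hairpins. The test called 0% of the 150, with 32 (21.3%) at an unadjusted p under 0.05 and none of the miR-181 hairpins among them. None of the 4 was free of overlap between the groups, as 10.7% of the 150 were. For miR-181a-1 the ratio was 22.4, 31.5, 25.7 and 28.7 in hyperlipidemic and 26.6, 23.4, 29.4 and 16.1 in normal replicates 1 to 4, a log2 difference of 0.20 (SE 0.29, 95% interval -0.43 to 0.84, limma adjusted p = 0.686). It was 0.025 without normal replicate 4, 0.32 without normal replicate 3 and 0.11 without both. For miR-181b-1 it was 75.4, 111, 125 and 135 in hyperlipidemic and 81.8, 72.5, 108 and 60.3 in normal replicates 1 to 4, a log2 difference of 0.44 (SE 0.33, 95% interval -0.29 to 1.16, limma adjusted p = 0.409), and of 0.47 without normal replicates 3 and 4. Since the 5p sequence of miR-181a comes from both copies, its ratio to either passenger overstates that copy's own ratio, and the miR-181b-5p sum may do so likewise.

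Of the 4 hairpins with both arms tested, miR-181a-2 had the highest ratio in every library. The guide level in it is a sum over both copies, so the balance of arms at this hairpin alone was not measured. The ratio of the summed guide to this rare passenger was 371, 1006, 1051 and 1419 in hyperlipidemic and 849, 749, 476 and 431 in normal replicates 1 to 4. The log2 difference was 0.48 (SE 0.43, 95% interval -0.45 to 1.40, limma adjusted p = 0.487). Hyperlipidemic replicate 1 was the lowest of all 8 libraries, so the groups overlapped. The difference was 0.87 without that library, 0.25 without hyperlipidemic replicate 4 and 0.079 without normal replicates 3 and 4. The miR-181c hairpin has a guide sequence of its own. Its ratio was 32.6, 23.1, 30.3 and 31.3 in hyperlipidemic and 28.9, 29.3, 8.42 and 7.55 in normal replicates 1 to 4. The log2 difference of 0.93 (SE 0.47, 95% interval -0.11 to 1.96, limma adjusted p = 0.271) rested on normal replicates 3 and 4, and without them it was -0.00.

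**Figure D5:**
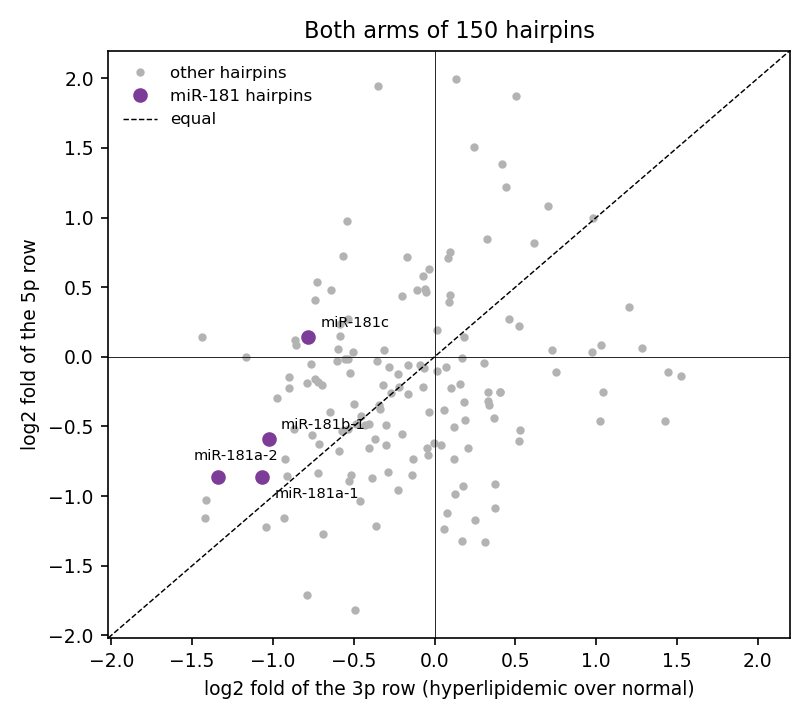
Log2 fold (hyperlipidemic over normal) of the 3p arm on the x axis and of the 5p arm on the y axis for 150 rno- hairpins with both arms tested (grey), with the 4 miR-181 hairpins in purple and a dashed line where both are equal. All 4 lie left of 0, and miR-181c alone of them lies above 0 on the y axis.

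Passenger strands made up 3.27% ± 0.477 of the family's signal in the hyperlipidemic and 4.10% ± 1.23 in the normal group (SD, n = 4 each), with overlap. Of the passenger signal miR-181a-1-3p held 80.2% ± 2.30 and 81.6% ± 3.42 (SD, n = 4 each), also with overlap. The summed guides stood at 10821 ± 1878 and 17966 ± 2841 RPM and the summed passengers at 359 ± 24.5 and 764 ± 237 RPM (SD, n = 4 each), each without overlap.

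In order of mean level the members ran from miR-181a-5p through miR-181b-5p, miR-181c-5p, miR-181a-1-3p, miR-181d-5p, miR-181c-3p, miR-181b-1-3p, miR-181a-2-3p and miR-181b-2-3p to miR-181d-3p. MiR-181b-5p and miR-181c-5p overlapped over the libraries, with miR-181b-5p higher in 6 of 8, as did miR-181b-1-3p and miR-181a-2-3p, with the former higher in 5 of 8. MiR-181b-2-3p was above miR-181d-3p in 7 of 8. Every other neighbour in the order was higher in 8 of 8 libraries, although the ranges of miR-181a-1-3p and miR-181d-5p overlapped.

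Members of the family followed miR-181a-5p over the 8 libraries to different degrees. Pearson's r of the log2 levels with miR-181a-5p was 0.96 for miR-181b-1-3p, 0.91 for miR-181d-5p, 0.88 for miR-181a-1-3p, 0.83 for miR-181b-5p, 0.81 for miR-181c-3p, 0.70 for miR-181a-2-3p and -0.37 for miR-181c-5p. Over the deviations from the group means it was 0.91 for miR-181b-5p, 0.86 for miR-181d-5p, 0.77 for miR-181b-1-3p, 0.70 for miR-181c-3p, 0.35 for miR-181a-1-3p, -0.03 for miR-181a-2-3p and -0.31 for miR-181c-5p. The guide miR-181c-5p thus had a weak negative r in both measures. Normal replicates 3 and 4 held its lowest levels and the highest of miR-181a-5p, and r without them was not computed. MiR-181b-5p and miR-181d-5p, which differ from each other by 1 substitution, were high in both measures. MiR-181c-5p, which lacks 1 base of miR-181a-5p, was not. Among the 388 rno- miRNAs outside the family, miR-143-5p (0.97), miR-7a-5p (0.96), miR-3068-3p (0.96), miR-362-5p (0.95), miR-98-5p (0.95), miR-872-5p (0.95), miR-186-5p (0.94) and miR-449c-5p (0.94) were most like miR-181a-5p in level. Over deviations from the group means the closest were miR-98-5p (0.98), miR-20a-5p (0.95), miR-190b-5p (0.95), miR-99b-3p (0.94), miR-93-5p (0.94), miR-210-3p (0.93), miR-362-5p (0.93) and miR-20b-5p (0.93). All these values describe the same 8 libraries and their common scaling, and the highest of 388 is large by selection.

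Lists of miRNAs that act in the same settings gave no call. Of 18 lymphocyte and haematopoietic miRNAs, all tested, 0 passed in either direction by limma and 2 had an unadjusted p under 0.05, both lower. Their median log2 fold was -0.29, with 13 of 18 below 0. The most abundant were miR-142-5p (log2 fold 0.84, SE 0.39), miR-142-3p (0.32, SE 0.45), miR-223-3p (0.38, SE 0.36) and miR-191a-5p (-0.85, SE 0.26), the last without overlap between the groups. Of 16 inflammation and NF-kB miRNAs, all tested, 0 passed and 3 had an unadjusted p under 0.05, all lower. Their median was -0.37, with 13 of 16 below 0, and miR-21-5p (-0.89, SE 0.28), miR-27a-3p (0.52, SE 0.31) and miR-125b-5p (-0.03, SE 0.32) were abundant members. Of the 396 rno- miRNAs tested, 12.6% had an unadjusted p under 0.05 by limma as lower, and 61.9% had a log2 fold below 0. The miR-181 median of -0.82 was further below 0 than the medians of the lists (-0.29 and -0.37) and the rno- median of -0.20, a contrast that was not tested.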

How the data were processed

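Per the labels' protocols, adapters were joined to both ends of the RNA, products of 140 to 160 bp were selected on a gel, and sequencing gave single-end reads of 50 bp. Ligation and selection favour some miRNAs over others. Demultiplexing software bcl2fastq 1.8.4 and the build Rnor_6.0 are named in the submitters' processing notes. For the aligner, the miRNA reference and the counting rule nothing is given in the sources used here.

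A table of 974 miRNAs was deposited by the authors, with a signal per library that its header calls FPKM and that the authors had scaled. From the values it is RPM, scaled on its own within each of the rno- and predicted classes, with no length in it, and every value up to 20 reads was a whole number of reads within 0.1 read (100% in each class and library). Beside it the authors deposited a fold (a ratio), its log2, a p-value and an adjusted p-value, per the file headers, with no test named.

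The groups came from the labels. Levels were compared with limma 3.58.1 (R 4.3.3, lmFit and eBayes with a trend), two-sided, on log2(RPM + 0.475). The pseudocount was the median over libraries of the lowest rno- value above 0. It was more than 1 read (0.208 to 0.378 RPM) in hyperlipidemic and less than 1 read (0.572 to 1.01 RPM) in normal rno- values. In the predicted class 1 read was 6.94 to 16.6 RPM, so the pseudocount and the filter on the mean both lay below 1 read there. MiRNAs above 0 in at least 4 libraries with a mean of at least 2.375 RPM were tested (696 of 974), and p-values were adjusted by Benjamini-Hochberg with a threshold of 0.05. Arm ratios were fitted by limma over 150 hairpins, and paralogue ratios were compared by exact permutation in Python 3.11.15 with scipy 1.17.1. The fits were tested on simulated data. Whole reads behind the values were used for depth and for voom, and TMM factors were computed by an own implementation. Alternatives covered the pseudocount, filter, scaling, class, replicate block and each library left out.

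Sequences, names and neighbours came from RefSeq tables of GRCr8. Named miRNAs were all members, the 8 closest to miR-181a-5p by Pearson's r in each of 2 measures, and up to 4 of each list by call and then mean level. The members and lists were chosen with earlier results of these data known.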

Additional observations from a re-analysis of the deposited data

Results flagged for a closer look

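The ratio of miR-181a-1-3p to miR-181b-1-3p, the passengers of the chromosome 13 pair, was 32.4 in normal replicate 4, with the nearest of the other 3 normal libraries at 21.1. The gap was 0.833 of the range of the group, above Dixon's 95% critical value for 4 samples. It was the single such value among 46 groups of 4 libraries screened, where chance gives about 1 in 20. In that library miR-181a-1-3p was at 895 RPM, the highest of the 8, and miR-181b-1-3p at 27.6 RPM, within the range of the other normal libraries.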

How the results depend on the processing

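No member was called under any setting run. The lowest adjusted p was 0.0732 for miR-181a-1-3p (without normal replicate 1; log2 folds -1.18 to -0.79 over all settings, adjusted p up to 0.274) and 0.0896 for miR-181a-5p (10 times the pseudocount; -0.93 to -0.59, adjusted p up to 0.306). Of 144 alternative values for members 143 kept their direction, as did 51 of 52 for arm ratios and 97 of 104 for paralogue ratios. These counts include settings that could not change a direction. The filter and the replicate block leave each fold or ratio difference as it was, as fitting rno- miRNAs alone does for members. The paralogue ratios were tested again under the pseudocount and filter alternatives only. Excluding normal replicates 3 and 4 together, chosen after seeing the data, turned miR-181c-5p to -0.18, the miR-181c arm ratio to -0.00417, miR-181b-5p over miR-181d-5p to -0.12, miR-181a-1-3p over miR-181b-1-3p to 0.10 and miR-181a-1-3p over miR-181a-2-3p to -0.026. The last was -0.021 with 10 times the pseudocount. Leaving out 1 library gave -0.029 to 0.31 for miR-181b-5p over miR-181d-5p, below 0 without normal replicate 4, and -0.14 to 0.14 for miR-181a-1-3p over miR-181b-1-3p, above 0 without hyperlipidemic replicate 2 (0.11) or normal replicate 4 (0.14). The cause was not tested.

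Over all miRNAs 5 were called, against 12 with 10 times the pseudocount, 3 with rno- miRNAs alone, 1 with TMM factors on them, 0 with voom and 0 to 12 without 1 library. With a replicate block 0 were called. The r between deviations of same-numbered libraries was 0.14, -0.37, -0.32 and -0.01 for replicates 1 to 4. Among normal libraries, replicate 1 was the most like hyperlipidemic replicate 1, and for no other number did this hold. So few values cannot show whether the number marks a pairing. With 10 times the pseudocount 1 of the 150 arm ratios was called. The family's mean share in hyperlipidemic libraries was 1.68% with the red-cell list out of the denominator and 1.18% to 1.35% without 1 library. In normal libraries it was 2.48% and 1.96% to 2.24%. The planned edgeR test was not run, since the deposited values are scaled and not counts. Depth limits the rare passengers, with 145 and 137 reads of miR-181a-2-3p per group and fewer than 20 of miR-181b-2-3p.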

Other observations

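MiR-23a-3p, miR-27a-3p and miR-24-3p come from a cluster near Mir181c and Mir181d on chromosome 19, and were looked at for that reason, after the values of the family were seen. MiR-23a-3p stood at 7947, 8084, 4963 and 7855 RPM in hyperlipidemic and 6930.4, 6373, 3734 and 2804 RPM in normal replicates 1 to 4 (log2 fold 0.61, SE 0.33, limma adjusted p = 0.337). Its lowest libraries were normal replicates 4 and 3, as for miR-27a-3p at 14373 and 11487 RPM, and these are also the 2 lowest for miR-181c-5p. MiR-24-3p, which a second hairpin on another chromosome also encodes, did not share this order. It was at 4598 and 4883 RPM in normal replicates 3 and 4, the latter the highest of the 8, with a log2 fold of -0.07 (SE 0.23, limma adjusted p = 0.882). MiR-24-2-5p, the other arm of this cluster's miR-24 hairpin, was at 509.7 and 531 RPM there. Its lowest libraries were hyperlipidemic replicates 3 (379.8 RPM) and 1 (430.2 RPM), with a log2 fold of -0.22 (SE 0.24, limma adjusted p = 0.621). MiR-181d-5p (519.8 and 366 RPM) and miR-181c-3p (108 and 138 RPM), from the Mir181c and Mir181d pair itself, were highest in normal replicates 3 and 4. MiR-144-3p, miR-451-5p, miR-142-5p and miR-223-3p, outside this cluster, were also lowest in normal replicates 3 and 4. A tie to genomic position was not tested.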
